A study of Mus musculus with 12 samples.

Results

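Livers of mice exposed to streptozotocin (STZ), whether or not the animals also received MENS, were compared with control livers. Genes were chosen by position alone: a gene belonged when its level in all 4 exposed samples lay on 1 side of both control samples, and genes for which the 2 arrays of any sample differed by more than 3 on the log2 scale were left out. Of 17669 genes tested, 3341 met the rule, 1697 higher (9.60% of genes tested) and 1644 lower (9.30%). At a difference of 2-fold or more, 160 were higher (0.906%) and 73 were lower (0.413%). These counts depended on single samples: 271 were higher without control sample 1 and 260 without STZ+MENS sample 1, while 179 were lower with control sample 2 left out, 141 with STZ sample 1 left out and 118 with STZ+MENS sample 1 left out.

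STZ is a toxin that kills the insulin-producing beta cells of the pancreas, and the series title describes the result as diabetes. The 6 liver samples came from mice given as 8 weeks-old, without a statement of whether this was the age at the start or at sampling. Each sample was measured on 2 arrays, 12 in all. The 2 control samples had no treatment, and no injection of vehicle is named for them. The 2 STZ samples had STZ alone. The 2 STZ+MENS samples had STZ and then MENS, a treatment whose name the labels do not spell out, delivered through a printed circuit board driven by its device for 1 h on each of 5 days a week, for 6 weeks. STZ is thus shared by all 4 exposed samples, and no sample had MENS without STZ. The labels used here name no strain, sex or allele and leave it unsaid whether a sample is a single animal. All p-values below therefore describe no more than the spread among these 6 samples, which may in part be technical.

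Insulin normally drives the liver to make fatty acids and cholesterol and restrains glucose output, fat burning and amino acid breakdown. When insulin is lacking, fatty acids reach the liver from adipose tissue and activate the nuclear receptor PPARalpha, which turns on genes of fat oxidation. STZ also damages DNA, and DNA damage stabilises p53, the tumour suppressor whose target Cdkn1a halts the cell cycle. Metallothioneins are small cysteine-rich proteins that bind zinc and copper and are induced in liver by metals, glucocorticoids and oxidative stress.

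Levels are given as log2(intensity + 50) of the brightest probe of each gene, differences are exposed minus control on that scale with the standard error of the limma model, and levels of different genes are not compared. Where pairs of levels follow each other without group names, they are control, STZ and STZ+MENS in that order, sample 1 before sample 2. List members counted as higher or lower are those that met the rule. Over all genes tested the shares that met it were 9.60% higher and 9.30% lower. The albumin gene Alb, the transthyretin gene Ttr and the apolipoprotein gene Apoa1 ranked 3, 2 and 4 of all genes by mean level, as in liver. Across genes, which are not independent replicates, samples of the same group correlated at 0.985 to 0.991, exposed with control samples at 0.977 to 0.984, and STZ with STZ+MENS samples at 0.966 to 0.986. The median SD over the 4 exposed samples was 0.237 against 0.127 over the 2 controls for all genes, and 0.553 against 0.21 for the genes that were 2-fold apart. An SD over 2 samples and an SD over 4 samples that span 2 treatment groups are not directly comparable. The 2-fold genes were also chosen on these same samples. With limma and Benjamini-Hochberg adjustment, 0 of 17669 genes (0%) reached an adjusted p of 0.05 for exposed against control. The lowest adjusted p was 0.0639, and 850 genes were higher and 651 lower at an unadjusted p of 0.05. Without STZ+MENS sample 1, 14 genes were higher and 14 lower past the adjusted threshold. Without control sample 2 the counts were 2 and 1, and without any other single sample they were 0. With 4 samples against 2, the smallest p of an exact permutation test is 0.067 one-sided, or 0.13 when doubled for 2 sides, and none was used. In bulk tissue, a lower share of a cell type and less RNA per cell cannot be told apart.

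The metallothionein genes Mt2 and Mt1 were both among the 3 higher genes with the widest gap, the distance between the nearest exposed and the nearest control sample. They are neighbours on chromosome 8, and no other tested gene lies between them. The 250 bases before each gene's start are shown because metal-responsive transcription of these genes is known to act through short elements near it. Capitals mark matches on either strand to TGCACNC or TGCGCNC, letters of the metal response element (RefSeq, build GRCm38.p6).
Mt2, chr8:94172368-94172617, plus strand: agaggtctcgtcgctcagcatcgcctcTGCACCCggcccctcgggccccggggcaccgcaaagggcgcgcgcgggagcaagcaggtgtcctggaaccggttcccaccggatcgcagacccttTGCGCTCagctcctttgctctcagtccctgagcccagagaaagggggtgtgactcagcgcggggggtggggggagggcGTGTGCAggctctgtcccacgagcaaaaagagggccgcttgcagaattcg
Mt1, chr8:94178839-94179088, plus strand: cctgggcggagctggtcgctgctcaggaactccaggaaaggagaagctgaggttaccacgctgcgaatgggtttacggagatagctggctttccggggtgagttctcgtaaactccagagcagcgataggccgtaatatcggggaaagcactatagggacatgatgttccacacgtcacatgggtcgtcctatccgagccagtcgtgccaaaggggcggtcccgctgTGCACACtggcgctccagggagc
In the window of 300 bases that runs from 250 before to 50 after the start, Mt2 held 4 matches and Mt1 held 3, of which 3 and 1 fall in the bases shown. The same letters occurred in the windows of 35.4% of the 13925 tested genes with a RefSeq promoter, in 33.1% of the higher and in 37.5% of the lower genes that were 2-fold apart, so a match does not set those genes apart.

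Mt2 stood at 10.22 and 11.57 in control, 15.29 and 15.62 in STZ, and 15.23 and 15.48 in STZ+MENS. The 4 exposed samples lay together, far above controls that themselves differed. The difference was 4.51 ± 0.35, or 22.8-fold, with an adjusted p of 0.0639 (limma, Benjamini-Hochberg), and it was between 3.84 and 5.18 over 19 alternatives, with adjusted p between 0.0067 and 0.242. Mt1 stood at 14.29 and 14.54 in control, 16.33 and 16.53 in STZ, and 17.11 and 17.71 in STZ+MENS, a difference of 2.50 ± 0.38 with an adjusted p of 0.234. Unlike Mt2, Mt1 was further from control in both STZ+MENS samples than in both STZ samples, by 0.98 ± 0.23 (unadjusted p = 0.00495). The coding sequences of the pair are similar, and whether their probes tell them apart was not tested. Of 9 tested metallothionein and zinc transport genes, these 2 were higher and Slc39a4, a zinc importer, was lower, at a mean of 16.01 ± 0.02 (SD) in the 2 controls, 14.61 and 14.60 in STZ, and 15.53 and 15.26 in STZ+MENS. The list's median difference was -0.04.

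**Figure D1:**
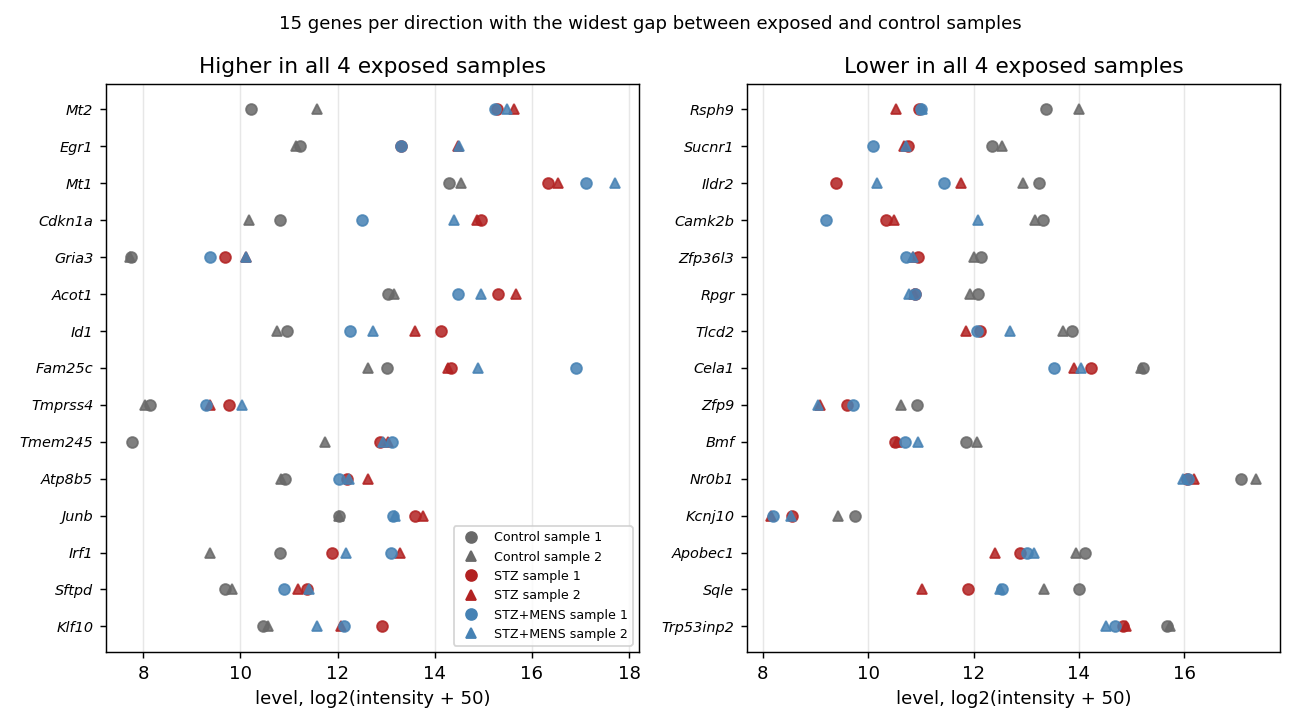
Level in each of the 6 samples, as log2(intensity + 50), of the 15 genes per direction with the widest gap between exposed and control samples, higher genes on the left and lower genes on the right, ordered by gap from the top. Each point is the mean of 2 arrays; colour gives the group and shape the sample number. Gaps ran from 1.01 to 3.67 for the higher genes and from 0.79 to 2.35 for the lower, and Tmem245 is the gene whose controls lie furthest apart.

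The p53 targets among the higher genes were led by Cdkn1a. This gene, which encodes the cyclin-dependent kinase inhibitor p21, stood at 10.81 and 10.17 in control, 14.95 and 14.86 in STZ, and 12.51 and 14.39 in STZ+MENS. Every exposed sample was above control, with STZ+MENS sample 1 the closest. The difference was 3.69 ± 0.68, or 12.9-fold (adjusted p = 0.31). It was between 2.96 and 4.42 over 19 alternatives, with adjusted p between 0.0118 and 0.984, and passed in 1 of them, the fit without STZ+MENS sample 1. Mdm2, the ubiquitin ligase that degrades p53 and is itself a p53 target, was at 14.06 and 14.05 in control, 14.78 and 15.28 in STZ, and 15.09 and 15.43 in STZ+MENS. Gadd45a, a growth arrest gene, differed by 0.72 ± 0.22. These were the 3 higher members of 16 tested p53 targets (18.8%, against 9.60% of all genes tested), with 0 lower. The list's median difference was 0.57 against -0.0076 for all genes. Its median distance from the control mean was 0.55 and 0.72 in STZ and 0.59 in STZ+MENS sample 2. In STZ+MENS sample 1 that distance was -0.09, at control level. Phlda3, a p53 target that restrains Akt, fell outside the rule because STZ+MENS sample 1 (8.55) lay within the controls (8.65 and 8.23), while STZ was at 11.15 and 11.49 and the other STZ+MENS sample at 10.46. Gdf15, a stress-induced hormone named after its values were seen, was at 10.74 and 10.41 in control, 13.80 and 13.79 in STZ, and 11.46 and 13.04 in STZ+MENS. It thus had the order of Cdkn1a, with STZ+MENS sample 1 nearest control.

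Immediate early genes, which are transcribed within minutes of a stimulus, counted 5 higher and 2 lower of 18. Egr1, a zinc finger transcription factor, stood at 11.23 and 11.15 in control, 13.30 and 14.48 in STZ, and 13.31 and 14.49 in STZ+MENS, a difference of 2.71 ± 0.41 (adjusted p = 0.234). The STZ and STZ+MENS values were nearly the same, 0.01 ± 0.49 apart. Junb, a component of the AP-1 transcription factor, was at 12.02 in both controls, 13.60 and 13.76 in STZ, and 13.13 and 13.18 in STZ+MENS. Klf10, a TGF-beta-inducible zinc finger factor, differed by 1.65 ± 0.34, and the stress-response genes Ier2 and Ier3 by 0.72 ± 0.20 and 0.64 ± 0.28. The 2 lower genes were Fosb, a component of AP-1 (-0.28 ± 0.15), and Klf6, a zinc finger factor (-0.37 ± 0.17). Nfkbia, the inhibitor of NF-kappaB and also named after its values were seen, was at 14.87 and 15.16 in control, 16.13 and 16.14 in STZ, and 16.10 and 16.35 in STZ+MENS, so the exposed samples were closer to each other than to either control. Irf1, an interferon-induced transcription factor, was at 10.81 and 9.37 in control, 11.88 and 13.29 in STZ, and 13.10 and 12.18 in STZ+MENS, with arrays of the same sample up to 2.53 apart. Taken singly, its exposed and control arrays overlapped.

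Id genes encode inhibitors of basic helix-loop-helix factors and are targets of BMP, the signal that also sets hepcidin in liver. Id1 stood at 10.96 and 10.76 in control, 14.12 and 13.59 in STZ, and 12.26 and 12.73 in STZ+MENS, a difference of 2.31 ± 0.49 (adjusted p = 0.351). Id3 was at 12.82 and 12.85, 14.77 and 14.60, and 13.68 and 13.52 in the same order of groups, and Smad7, the inhibitory Smad, at 9.85 and 9.87, 11.96 and 11.45, and 10.46 and 10.68. In all 3 genes STZ+MENS lay between control and STZ without overlap, lower than STZ by 1.36 ± 0.24, 1.09 ± 0.15 and 1.14 ± 0.20. Id2 differed from control by 0.76 ± 0.21 with no such split, STZ+MENS being 0.03 ± 0.25 below STZ. These were the 4 higher members of 17 tested BMP and Id genes, 2 of which were lower: Smad1, a BMP signal transducer (-0.40 ± 0.22), and Tfr2, an iron sensor (-0.25 ± 0.17).

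Genes of DNA replication and cell division had list medians above control in 3 of the 4 exposed samples. Of 17 tested members of the cell cycle and DNA replication list, 4 were higher and 0 lower, with a median difference of 0.87. The list's median distance from the control mean was 0.82 and 1.35 in STZ and 1.16 in STZ+MENS sample 2, but -0.04 in STZ+MENS sample 1, where it was at control level. E2f1, a factor that switches on S phase genes, was at 10.84 and 10.63 in control, 11.91 and 12.79 in STZ, and 11.75 and 12.18 in STZ+MENS, with arrays of the same sample up to 1.49 apart. Single arrays of E2f1 overlapped, with 11.01 in 1 array of STZ+MENS sample 1 against 11.27 and 11.18 in 1 array of each control. Mcm5, a subunit of the replicative helicase, was at 9.36 and 9.83 in control, 11.55 and 12.46 in STZ, and 9.84 and 12.42 in STZ+MENS, so it met the rule by 0.01. Mcm7, another helicase subunit, missed it by 0.07. Ccna2, cyclin A2, was at 9.14 and 9.06 in control, 9.51 and 10.84 in STZ, and 9.73 and 10.85 in STZ+MENS, and Rrm2, a subunit of ribonucleotide reductase, differed by 0.79 ± 0.36.

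Further genes with a role in DNA replication or chromosome handling were named after their values were seen, so they are given as single values and add nothing to the count of the list. Uhrf1, which keeps DNA methylation through replication, was at 9.22 and 9.80 in control, 11.43 and 12.95 in STZ, and 9.82 and 12.88 in STZ+MENS. Cdt1, which licenses replication origins, Lig1, a DNA ligase, Pold1, the catalytic subunit of DNA polymerase delta, and Ezh2, a histone methyltransferase, differed by 1.51 ± 0.57, 1.17 ± 0.51, 1.22 ± 0.37 and 1.02 ± 0.24. Dscc1, which helps hold sister chromatids together, was highest in STZ+MENS sample 1, at 12.99 against 9.07 and 10.36 in STZ and 11.23 in the other STZ+MENS sample. The 3 tested of 10 erythroid markers also varied by sample, their median distance from control being 0.07 in STZ+MENS sample 1, -2.23 in STZ+MENS sample 2, and -1.40 and -0.64 in STZ. Their summed intensity was 79400 to 95600 in control, 32700 to 55400 in STZ and 8970 to 104000 in STZ+MENS, 1 of the 3 (Epb42) had a mean intensity under 50, and their part in the cell cycle genes was not tested.

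Interferon response genes were higher in 5 of 21 and lower in 0, with a median difference of 0.41, and all 5 were at least 2-fold apart. Besides Irf1 they were the antiviral GTPase genes Mx1 and Mx2, Rsad2, the antiviral enzyme viperin, and Irf7, the master regulator of type I interferon. Mx2 stood at 11.85 and 12.43 in control, 13.16 and 13.78 in STZ, and 13.75 and 14.45 in STZ+MENS. Rsad2 was at 11.42 and 11.67, 12.67 and 13.32, and 12.32 and 13.08, and its neighbour Cmpk2, named after its values were seen, at 10.75 and 11.58, 12.51 and 12.90, and 11.71 and 12.50. Mx1 differed by 1.67 ± 0.30 (adjusted p = 0.291) and Irf7 by 1.47 ± 0.51, with Irf7 spread from 14.27 to 16.23 among the exposed. None of the 5 differed between STZ+MENS and STZ at an unadjusted p of 0.05. The Rsad2 promoter is shown because it holds the letters GAAANNGAA of the interferon-stimulated response element, capitalised here as they stand on the gene's strand (RefSeq, GRCm38.p6).
Rsad2, chr12:26456453-26456702, minus strand: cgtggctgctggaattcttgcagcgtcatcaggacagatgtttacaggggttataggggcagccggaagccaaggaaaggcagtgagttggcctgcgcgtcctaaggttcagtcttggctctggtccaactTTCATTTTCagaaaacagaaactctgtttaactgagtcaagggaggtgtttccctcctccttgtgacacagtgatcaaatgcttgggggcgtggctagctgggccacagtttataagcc
Those letters, on either strand, occurred in 9 of 17 interferon genes with a RefSeq promoter and in 8.88% of tested genes, and the Irf7 window held 0.

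Markers of lymphocytes, macrophages and neutrophils are given beside the interferon genes, and their part in them was not tested. The summed lymphocyte markers (11 of 13 tested, 1 higher, 1 lower) were 10200 to 11900 in control, 8870 to 9710 in STZ and 10600 to 12100 in STZ+MENS. Kupffer cell and macrophage markers (11 of 12 tested) had 0 higher and 2 lower, with sums of 42000 to 48700, 42400 to 43600 and 48000 to 69900. Itgam, an integrin of myeloid cells, was the clearest of the lower ones, at 10.87 and 11.01 in control and between 9.86 and 10.30 in the exposed. The macrophage marker Adgre1 differed by -0.47 ± 0.22. The 2 lymphocyte markers outside control were subunits of the T cell receptor complex that differed in opposite directions, Cd3d by 0.83 ± 0.19 and Cd3e by -0.43 ± 0.15. Neutrophil markers (9 of 10 tested) had 1 higher, Retnlg (0.29 ± 0.15), and 0 lower.

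Of 23 tested fatty acid oxidation genes and PPARalpha targets, 6 were higher and 0 lower, with a median difference of 0.27. Acot1, a cytosolic acyl-CoA thioesterase, stood at 13.03 and 13.15 in control, 15.30 and 15.68 in STZ, and 14.48 and 14.95 in STZ+MENS, a difference of 2.02 ± 0.32 (adjusted p = 0.234). Its mitochondrial paralog and neighbour Acot2 was at 11.40 and 11.43, 12.94 and 13.31, and 11.70 and 12.17. Both lay between control and STZ in the STZ+MENS samples. The 2 genes are near-identical in sequence, so their values may not be independent. Cpt1a and Cpt2, which carry long-chain fatty acids into mitochondria, differed by 0.53 ± 0.16 and 0.52 ± 0.15, and for these the STZ+MENS and STZ samples overlapped. Cidec, a lipid droplet protein, and Slc25a20, the mitochondrial carnitine carrier, differed by 0.89 ± 0.37 and 0.32 ± 0.19. The list as a whole was split, its median distance from control being 0.50 and 0.52 in STZ but 0.04 and 0.06 in STZ+MENS.

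Lists of amino acid breakdown, glucose handling and lipid transport counted more higher than lower members, at median differences of 0.02, 0.27 and 0.03. The insulin signalling list counted more lower than higher members, at a median difference of -0.08. Sds, serine dehydratase, was at 15.52 and 15.62 in control, 16.29 and 16.21 in STZ, and 16.43 and 16.17 in STZ+MENS, with no split between the exposed groups. Oat, ornithine aminotransferase, was at 17.38 and 17.23, 18.84 and 18.90, and 17.63 and 18.28. With Hal, histidine ammonia-lyase, and Asl, argininosuccinate lyase of the urea cycle, 4 of 16 amino acid breakdown genes were higher and 0 lower. Trib3, a pseudokinase that inhibits Akt, was at 10.85 and 12.41 in control, 14.59 and 14.00 in STZ, and 13.41 and 14.12 in STZ+MENS, and Igfbp2, a binding protein of insulin-like growth factors, differed by 0.68 ± 0.21. In the same insulin and IGF list (2 higher and 4 lower of 17) Cish, a feedback inhibitor of growth hormone signalling, was lower, at 14.17 and 15.10, 11.72 and 12.89, and 13.67 and 11.55, as was Pik3r1, the regulatory subunit of PI3-kinase (-0.66 ± 0.19). The other 2 lower genes of that list also belong to growth hormone signalling, Socs2, a feedback inhibitor, at 12.60 and 13.09, 11.57 and 12.12, and 12.52 and 11.50, and the receptor gene Ghr, which differed by -0.60 ± 0.26. The glucose-handling genes counted 3 higher and 0 lower of 14, with Gckr, the regulator of glucokinase (0.43 ± 0.20), Foxo1, a transcription factor held back by insulin (0.36 ± 0.20), and Pck1. Of 20 lipid transport genes 5 were higher and 1 lower, among them the lipoprotein lipase regulators Angptl8 (0.86 ± 0.17), Angptl4 (0.67 ± 0.21) and Apoc2 (0.65 ± 0.18), Apoa5 (0.50 ± 0.17), and Fabp4, a fatty acid binding protein, at 11.66 and 11.46, 13.33 and 12.65, and 12.68 and 11.98. The lower gene was Lcat, the cholesterol-esterifying enzyme of plasma (-0.42 ± 0.18). Fabp4 is also an adipocyte marker, and so is Adipoq, at 9.49 and 9.63 in control and between 9.92 and 10.26 in the exposed. The 8 adipocyte markers (2 higher, 0 lower) summed to 8580 to 8800 in control, 13300 to 16900 in STZ and 10300 to 12400 in STZ+MENS, and their part in the lipid transport genes was not tested.

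Among the remaining higher genes with wide gaps, Gria3, a glutamate receptor subunit, was at 7.75 and 7.73 in control, 9.68 and 10.11 in STZ, and 9.37 and 10.12 in STZ+MENS, near the dim end of the scale. Fam25c was at 13.02 and 12.63, 14.33 and 14.27, and 16.90 and 14.89, with the widest spread in the group that had MENS. Sftpd, surfactant protein D, an innate immune lectin, was at 9.69 and 9.83, 11.36 and 11.18, and 10.90 and 11.42. Tmprss4, a serine protease, and Atp8b5, a phospholipid flippase, differed by 1.54 ± 0.23 and 1.40 ± 0.19. Tmem245, a membrane protein, differed by 3.24 ± 0.93, but its controls were at 7.76 and 11.73, each on both of its arrays, and the exposed samples between 12.88 and 13.11. Without control sample 1 its difference was 1.26 and without control sample 2 it was 5.23, so its size rests on which control is kept.

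The 15 lower genes with the widest gap had gaps from 0.79 to 2.35. STZ+MENS and STZ differed at an unadjusted p of 0.05 in 1 of them (Sqle) and in 6 of the 15 higher genes, against 12.7% of all genes tested higher in STZ+MENS and 12.8% lower, and the contrast between the directions was not tested. Rsph9, a radial spoke protein known from motile cilia, is named through the platform annotation, and whether its probe reads that gene in liver was not tested. It stood at 13.37 and 14.01 in control, 10.96 and 10.52 in STZ, and 11.00 and 11.03 in STZ+MENS, a difference of -2.81 ± 0.24, or 7.03-fold lower, with an adjusted p of 0.0639 (0.0206 to 0.448 over 19 alternatives). Sucnr1, the receptor for extracellular succinate, was at 12.36 and 12.55, 10.76 and 10.68, and 10.10 and 10.72. Rpgr, a ciliary GTPase regulator, was at 12.08 and 11.94 in control and between 10.78 and 10.89 in the exposed, the tightest of these genes. These levels are of the brightest of its 4 probes. Over 19 alternatives, which include the mean of all probes, the Rpgr difference was between -1.22 and -0.36. Zfp36l3, a protein of the tristetraprolin family, was at 12.14 and 12.00 in control and between 10.72 and 10.95 in the exposed. It has 2 probes, and its difference was between -1.29 and -0.73 over the same alternatives.

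Ildr2 and Camk2b varied more among the exposed samples. Ildr2, an immunoglobulin-like membrane protein, was at 13.24 and 12.94 in control, 9.39 and 11.76 in STZ, and 11.43 and 10.16 in STZ+MENS. Camk2b, a calcium/calmodulin-dependent kinase subunit, was at 13.32 and 13.16, 10.34 and 10.49, and 9.19 and 12.08. Their differences were -2.41 ± 0.65 and -2.72 ± 0.69, with adjusted p of 0.42 and 0.406. Bmf, a pro-apoptotic BH3-only protein, Apobec1, the enzyme that edits apolipoprotein B mRNA, Nr0b1, an orphan nuclear receptor known mainly from adrenal and gonad, and Trp53inp2, an autophagy regulator, differed by -1.28 ± 0.17, -1.18 ± 0.22, -1.15 ± 0.15 and -0.99 ± 0.16. The Nr0b1 probe was bright, at 17.08 and 17.37 in control, and whether it reads that gene in liver was not tested. Nr0b1 has 2 probes, and its difference was between -1.29 and -0.62 over 19 alternatives, which include the mean of all probes. Tlcd2, Zfp9, a zinc finger gene, and Kcnj10, a potassium channel subunit, differed by -1.60 ± 0.24, -1.42 ± 0.24 and -1.22 ± 0.19. Cela1, an elastase of pancreatic acinar cells, was at 15.22 and 15.19 in control, 14.24 and 13.90 in STZ, and 13.52 and 14.05 in STZ+MENS. The 7 tested of 11 acinar markers had 2 lower (Cela1 and Cela2a) and 1 higher, Pnlip had a mean intensity under 50, and their sum, 49900 to 52400 in control, 28400 to 32300 in STZ and 29000 to 29200 in STZ+MENS, moved with Cela1, which is among the markers summed.

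Lipid synthesis genes counted more lower than higher members, unevenly over the exposed samples. Of 15 tested cholesterol synthesis genes 4 were lower and 0 higher, with a median difference of -0.84. Sqle, squalene epoxidase, stood at 14.01 and 13.33 in control, 11.90 and 11.03 in STZ, and 12.54 and 12.51 in STZ+MENS, a difference of -1.68 ± 0.45 (adjusted p = 0.42). Nsdhl, a sterol dehydrogenase, was at 11.04 and 10.75, 9.37 and 9.07, and 10.41 and 10.26, and Idi1, an isomerase of the mevalonate pathway, at 15.47 and 15.26, 14.63 and 13.93, and 14.64 and 14.83. In each of these the STZ+MENS mean lay between control and STZ. Pmvk, phosphomevalonate kinase, differed by -0.91 ± 0.39. Mvd, mevalonate decarboxylase, missed the rule, its STZ+MENS samples (14.11 and 13.22) overlapping control (14.15 and 13.64) while STZ stood at 11.03 and 10.67. At an unadjusted p of 0.05 (limma), 9 of the 15 were higher in STZ+MENS than in STZ and 0 lower. Over all genes tested the shares were 12.7% higher and 12.8% lower, and 0 genes passed an adjusted p of 0.05.

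Of 19 fatty acid and triglyceride synthesis genes 5 were lower and 2 higher. Scd1, the stearoyl-CoA desaturase, was at 19.10 and 19.13 in control, 16.70 and 15.40 in STZ, and 18.88 and 16.58 in STZ+MENS. Its control values sit at the top of the deposited scale, which limits its difference of -2.23 ± 0.84, and its gap was only 0.22. Elovl6, a fatty acid elongase, was at 15.98 and 15.28, 14.37 and 13.99, and 15.22 and 14.07, and Gpam, which starts triglyceride synthesis, differed by -0.78 ± 0.22. Acaca, acetyl-CoA carboxylase, and Dgat2, an enzyme of triglyceride synthesis, differed by -0.97 ± 0.40 and -0.53 ± 0.19. Acss2, which makes acetyl-CoA from acetate, and Dgat1, which completes triglyceride synthesis, were the 2 higher ones, by 0.42 ± 0.14 and 0.41 ± 0.15. Fasn, fatty acid synthase, missed the rule because STZ+MENS sample 1 (11.65) lay between the controls (12.23 and 11.12). The list's median distance from control in that sample was 0.14, against -0.70 in the other STZ+MENS sample and -0.64 and -0.60 in STZ.

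Chaperone genes had members on both sides of control, at shares near those of all genes tested. Hspa1a, the inducible HSP70, stood at 13.96 and 12.57 in control, 12.18 and 10.62 in STZ, and 10.06 and 10.79 in STZ+MENS, a difference of -2.35 ± 0.62, while Hspb1, a small heat shock protein, was higher, at 14.60 and 14.65, 15.19 and 15.51, and 15.71 and 15.45. Hsf1, the heat shock transcription factor, differed by 0.26 ± 0.19. Hspa1a has a near-identical copy next to it, so its probe may read both. Of 14 tested heat shock genes 2 were higher (14.3%, against 9.60% of all genes) and 1 lower (7.14%, against 9.30%). The list's median distance from control was 0.14 and -0.38 in STZ but -1.51 and -1.04 in STZ+MENS. Dnajb1, an HSP40, and Bag3, a co-chaperone, missed the rule, because STZ sample 1 lay between the controls for both. The promoters of Hspa1a and Hspb1 are shown because the pair differed from control in opposite directions and both hold the heat shock element letters GAANNTTC, in capitals (RefSeq, GRCm38.p6).
Hspa1a, chr17:34972157-34972406, minus strand: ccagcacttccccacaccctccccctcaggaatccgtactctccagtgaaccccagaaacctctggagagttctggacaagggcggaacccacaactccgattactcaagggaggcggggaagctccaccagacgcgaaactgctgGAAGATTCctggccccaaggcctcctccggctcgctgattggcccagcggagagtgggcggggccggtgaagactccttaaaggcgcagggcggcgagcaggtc
Hspb1, chr5:135887669-135887918, plus strand: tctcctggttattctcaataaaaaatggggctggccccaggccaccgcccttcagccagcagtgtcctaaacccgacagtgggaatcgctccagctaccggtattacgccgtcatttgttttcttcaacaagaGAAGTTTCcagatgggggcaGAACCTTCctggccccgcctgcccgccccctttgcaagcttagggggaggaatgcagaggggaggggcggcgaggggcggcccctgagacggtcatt
These letters, which read the same on both strands, occurred in 8 of 12 heat shock genes with a RefSeq promoter and in 7.66% of tested genes.

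Of 18 genes of the ER stress and amino acid response 6 were lower and 2 higher. Sdf2l1, an ER chaperone component, stood at 13.63 and 13.45 in control, 12.72 and 12.65 in STZ, and 12.74 and 12.84 in STZ+MENS, and Creld2, another ER protein, differed by -0.54 ± 0.18. Dnajb9, an ER co-chaperone, was at 13.31 and 13.11, 13.10 and 12.45, and 10.24 and 11.53, so most of its difference lay in STZ+MENS. The other lower ones were the ER stress sensor Atf6, the chaperone Hsp90b1 and Sel1l, a component of ER protein degradation, by -0.27 ± 0.13, -0.34 ± 0.17 and -0.46 ± 0.18, and the higher ones Herpud1 and Ppp1r15a, by 0.34 ± 0.15 and 0.22 ± 0.13. The median of the list was -0.20 in STZ and -0.44 in STZ+MENS. Acute phase genes counted 4 lower and 1 higher of 17, with Fga, the fibrinogen alpha chain, at 18.34 and 18.22, 17.80 and 17.12, and 17.76 and 17.03. The other fibrinogen chains, Fgb and Fgg, differed by -0.50 ± 0.24 and -0.13 ± 0.13, Crp by -0.29 ± 0.13 and Saa3, the higher one, by 0.34 ± 0.14. Part of the Fgb difference rests on 1 array, as the arrays of STZ sample 1 were at 18.31 and 16.61. The other exposed Fgb arrays were between 18.01 and 18.25, against 18.43 to 18.58 in control. Of the clock genes, 3 of 16 were higher (18.8%, against 9.60% of all genes) and 2 lower (12.5%, against 9.30%). Ciart, a circadian repressor, was at 10.15 and 10.81, 11.30 and 11.53, and 12.26 and 11.68, Per1 differed by 0.84 ± 0.24, Per2 by -0.55 ± 0.20, Arntl and Npas2, activators of the clock, by 0.36 ± 0.25 and -0.21 ± 0.14, and the time of day of sampling is not in the labels. Rgs16, a G protein regulator, Fkbp5, a glucocorticoid-responsive co-chaperone, and Zbtb16, a glucocorticoid-responsive zinc finger factor, were named after their values were seen. They differed by 2.42 ± 0.49, 1.11 ± 0.26 and 2.36 ± 0.73.

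**Figure D2:**
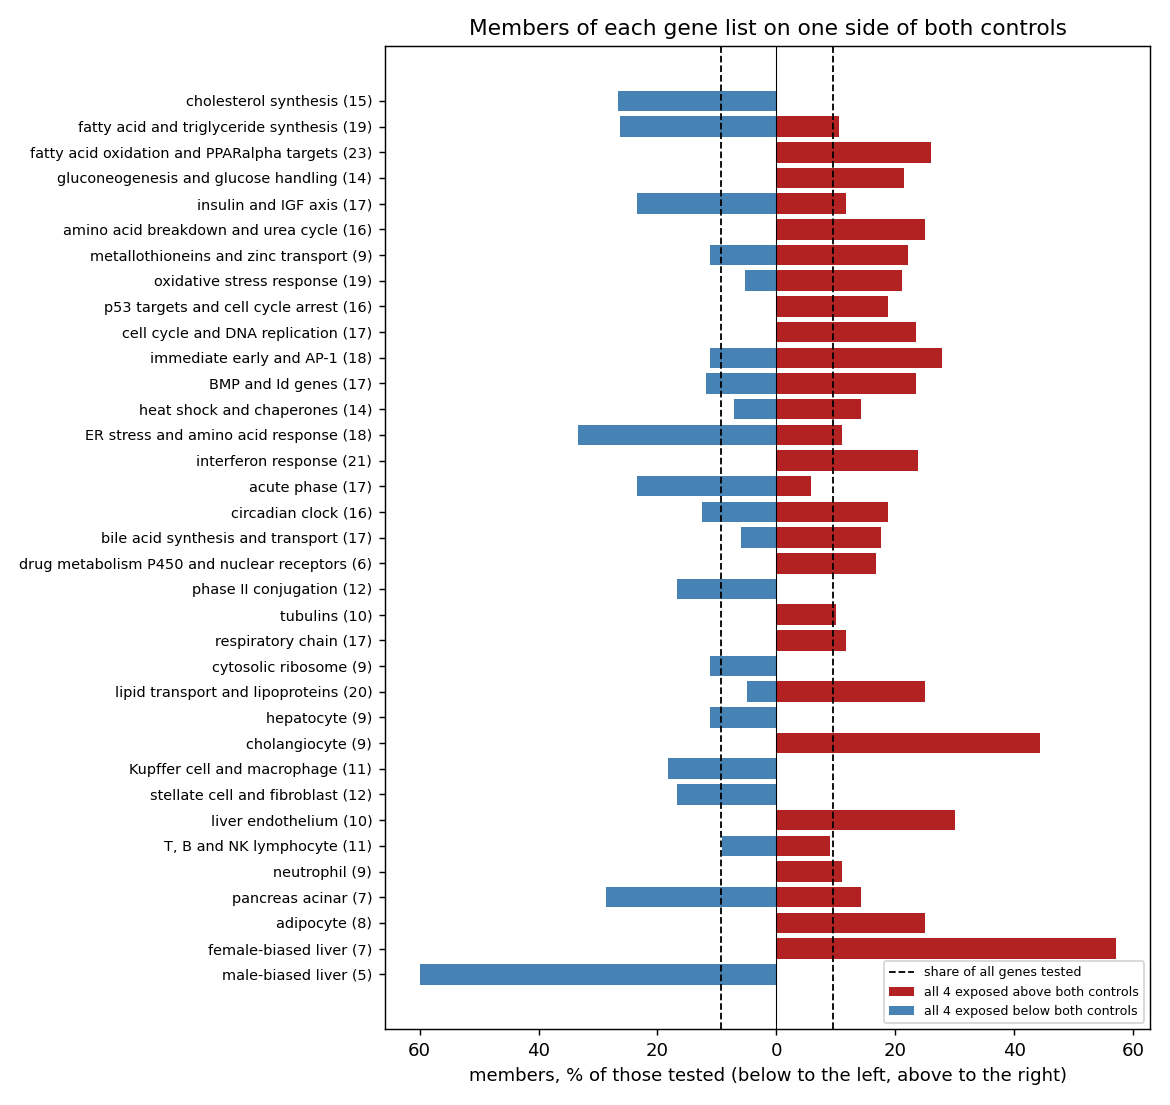
Share of the tested members of each gene list, in percent, whose 4 exposed samples all lie above (red, right) or below (blue, left) both controls, with the number tested in parentheses. Dashed lines mark the shares of all genes tested, 9.60% above and 9.30% below; the female-biased and cholangiocyte lists reach furthest right, with 4 of 7 and 4 of 9, and the male-biased list furthest left, with 3 of 5.

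Bile duct cell markers counted 4 higher (44.4%, against 9.60% of all genes tested) and 0 lower of 9. Krt19, a keratin of bile duct cells, was at 8.96 and 8.40 in control, 10.11 and 9.74 in STZ, and 9.49 and 9.70 in STZ+MENS. Anxa13, an annexin, was at 8.58 and 8.39, 9.83 and 10.51, and 8.95 and 9.78, and Tspan8, a tetraspanin, at 8.83 and 8.54, 10.42 and 9.88, and 8.95 and 9.59. Krt7, another keratin, differed by 0.41 ± 0.23. Taken singly, the exposed and control arrays of Krt19 and of Krt7 overlapped. The Krt19 arrays were at 9.38 and 8.54 in control sample 1 and at 9.04 and 9.94 in STZ+MENS sample 1. The 9 markers summed to 17400 to 17600 in control, 21100 to 26500 in STZ and 18900 to 24300 in STZ+MENS. Liver endothelial markers counted 3 higher and 0 lower of 10, with Vwf, von Willebrand factor, at 10.50 and 10.33, 11.34 and 11.05, and 10.82 and 10.94, and Eng and Kdr differing by 0.39 ± 0.19 and 0.34 ± 0.16, while their sum was 80300 to 94400 in control, 75000 to 82200 in STZ and 85400 to 106000 in STZ+MENS. Stellate cell and fibroblast markers counted 0 higher and 2 lower of 12, namely the collagen genes Col1a2, at 9.60 and 9.29 in control and between 8.39 and 8.85 in the exposed, and Col3a1, at 7.87 and 7.65 against 6.60 to 7.20. Of 9 hepatocyte markers 1 was lower, Hhex, a homeobox factor, at 13.88 and 14.20, 12.19 and 12.11, and 13.31 and 13.03, and their sum was 1850000 to 1870000 in control, 1670000 to 1750000 in STZ and 1700000 to 1790000 in STZ+MENS.

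Only some of the genes known to differ between male and female liver were tested. Of 7 tested female-biased genes 4 were higher and 0 lower, and of 5 tested male-biased genes 3 were lower and 0 higher, with 16 and 17 genes on the lists as drawn up. The other 3 female-biased and 2 male-biased genes overlapped control, and none reached the adjusted threshold. A1bg, a plasma glycoprotein, was at 7.28 and 7.45 in control, 10.42 and 9.25 in STZ, and 8.00 and 8.34 in STZ+MENS. Hao2, a peroxisomal oxidase, was at 10.65 and 10.73, 11.36 and 11.40, and 11.63 and 11.51. Prom1 and Fmo2 differed by 0.90 ± 0.52 and 0.44 ± 0.17. Prom1 barely met the rule, with STZ+MENS sample 1 arrays at 10.47 and 10.31 against control arrays between 10.30 and 10.37. Of the male-biased genes, C6, a complement component, was at 14.45 and 14.60, 13.81 and 13.94, and 13.54 and 13.89, and Nudt7, a peroxisomal hydrolase, at 17.57 and 17.40, 16.10 and 16.27, and 17.29 and 16.76, while C8b, another complement gene, differed by -0.51 ± 0.28. Taken singly, the exposed and control arrays of Prom1, Fmo2, Nudt7 and C8b overlapped. In STZ+MENS sample 2 the C8b arrays were at 16.76 and 17.31, against 17.04 and 17.07 in control sample 2. The STZ+MENS mean was nearer control than the STZ mean for A1bg, Prom1, Fmo2, Nudt7 and C8b, but not for Hao2 and C6. Bile acid genes counted 3 higher and 1 lower of 17, with Abcb4, the phospholipid exporter of bile, at 16.74 and 16.48, 17.52 and 17.86, and 17.27 in both STZ+MENS samples, and the transporter genes Slco1a4 and Abcc3 higher by 1.42 ± 0.40 and 0.68 ± 0.23. The lower one was Slco1b2 (-0.16 ± 0.13). Oxidative stress genes counted 4 higher and 1 lower of 19, with Nfe2l2, the regulator of antioxidant genes, at 12.94 and 12.97, 14.13 and 14.22, and 13.33 and 13.32, and Txnip, the thioredoxin inhibitor, and Srxn1, sulfiredoxin, higher by 0.57 ± 0.22 and 0.49 ± 0.18. The fourth higher one, Gpx1, met the rule by 0.002, and Hmox1, heme oxygenase, was lower (-0.39 ± 0.22). The lists of respiratory chain, ribosome, tubulin, drug metabolism and conjugation genes had at most 2 members outside control each, 0.39 ± 0.18 for Ndufv1 being the widest of the respiratory chain and 0.44 ± 0.19 for Nr1i2, the xenobiotic receptor PXR, that of drug metabolism.

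Several panel genes of glucose and fuel metabolism gave little or no pooled difference. Pck1, which starts gluconeogenesis, met the rule by 0.002, at 18.57 and 18.61 in control, 18.75 and 18.84 in STZ, and 18.61 and 18.65 in STZ+MENS. G6pc, glucose-6-phosphatase, was at 14.18 and 13.22, 15.68 and 14.86, and 12.96 and 13.08, so STZ was above and STZ+MENS below both controls, and the pooled difference of 0.45 ± 0.80 describes neither group. Tubb2a, a tubulin, was at 12.45 and 12.61, 15.05 and 14.47, and 12.59 and 12.45, with the difference from control seen in STZ alone. Igfbp1, Pdk4, Fgf21, Srebf1 and Ppargc1a, all known to respond to insulin or fasting, overlapped control, with differences of 0.53 ± 0.59, -0.17 ± 0.18, -0.02 ± 0.25, 0.17 ± 0.21 and 0.08 ± 0.30. Just inside the rule by the same margin as Pck1 were Gstt1 and Gpx1, and just outside, by 0.005, 0.010 and 0.011, were Atoh8, Timp1 and Txn1. Top2b was left out because its arrays differed by up to 6.56.

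The exposed samples were not uniform even among the genes that met the rule. Fitted with 3 groups, STZ+MENS and STZ differed at an unadjusted p of 0.05 in 2249 genes higher in STZ+MENS (12.7%) and 2268 lower (12.8%), while 0 passed an adjusted p of 0.05 (lowest 0.0545, limma, Benjamini-Hochberg). Without STZ+MENS sample 2, 1855 genes passed. Of the 160 higher genes that were 2-fold apart, 12 were higher and 27 lower in STZ+MENS at that unadjusted threshold, and of the 73 lower genes 20 were higher and 5 lower. The STZ+MENS mean was the nearer to control in 109 of the 160 and 51 of the 73, and in 8815 of all 17669 genes. The 2 comparisons share the STZ and STZ+MENS samples. STZ+MENS sample 1 was the exposed sample nearest control in 92 of the 160 (57.5%) and 40 of the 73 (54.8%), whereas among all 1697 higher and 1644 lower genes it was nearest in 31.7% and 32.5%. The median distance from control of the 160 genes was 1.19 and 1.63 in STZ and 0.91 and 1.43 in STZ+MENS, and that of the 73 was -1.40 and -1.53 in STZ and -0.97 and -1.25 in STZ+MENS. All 8 exposed arrays lay above all 4 control arrays in 104 of the 160, and below them in 58 of the 73. The sample means that chose these genes come from the same arrays, so this is a description, and over all genes tested it held for 1171, or 35.0% of the 3341.

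**Figure D3:**
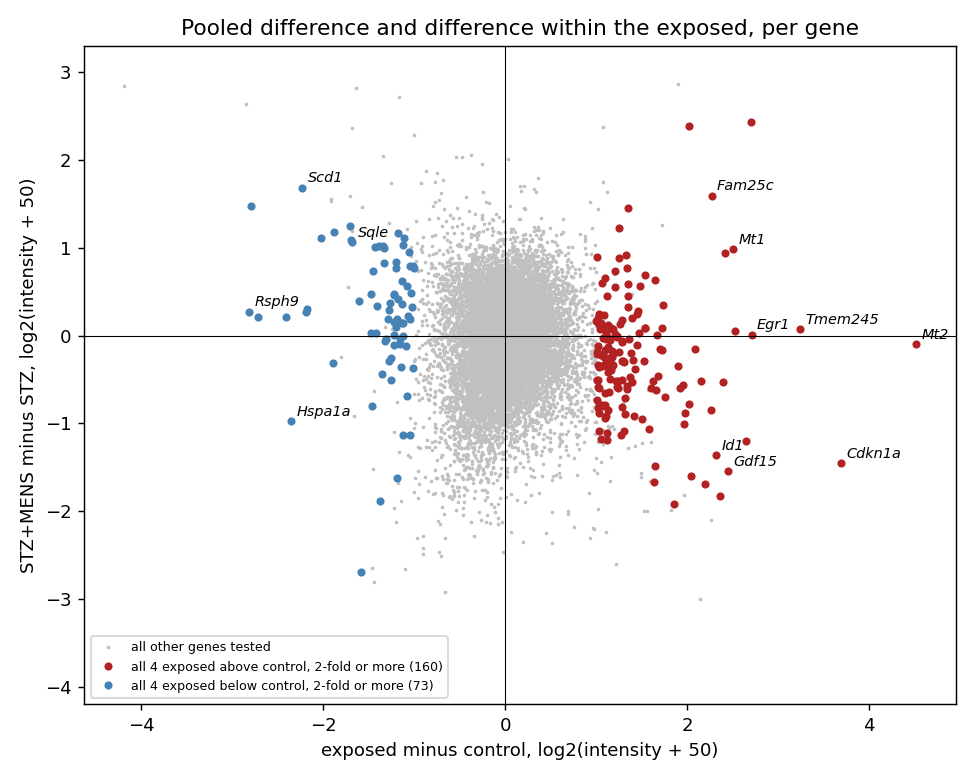
Difference of exposed from control (horizontal) against difference of STZ+MENS from STZ (vertical), both in log2(intensity + 50), for each gene tested. The 160 higher (red) and 73 lower (blue) genes that met the rule and were 2-fold apart are coloured; Mt2, Egr1 and Rsph9 lie near 0 on the vertical axis, and Cdkn1a, Gdf15 and Id1 lie below it.

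**Figure D4:**
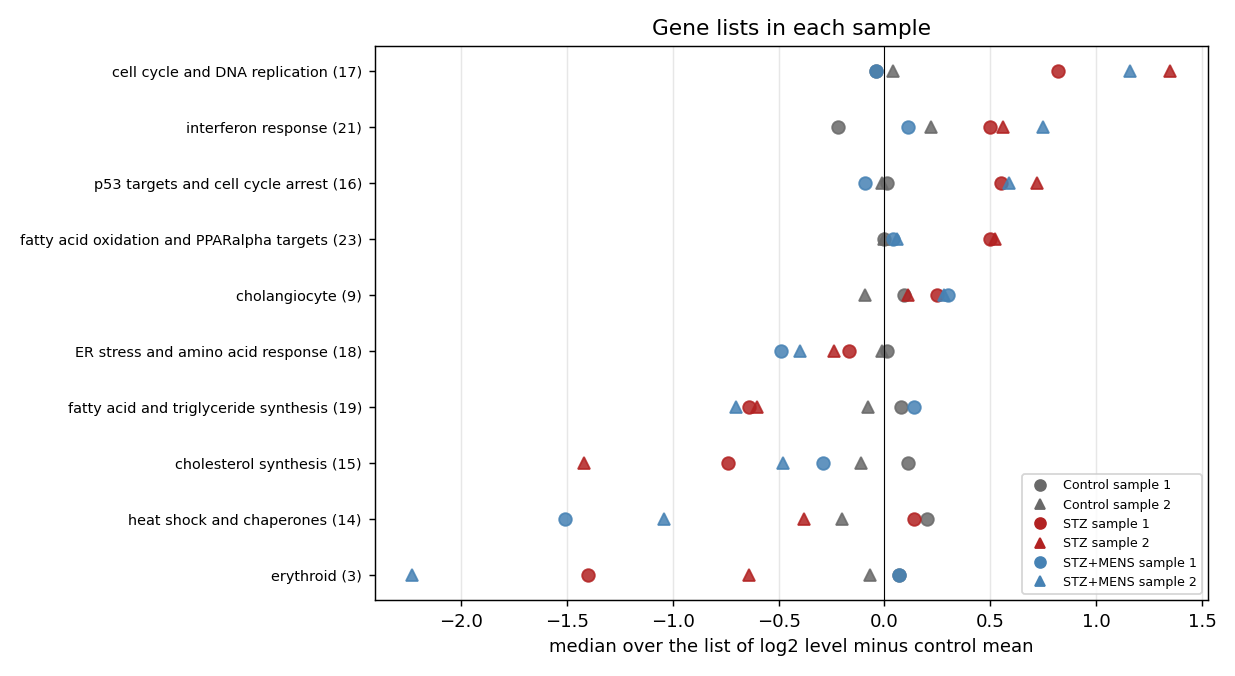
Median over the tested members of 10 gene lists of the log2 level minus the control mean, 1 point per sample, with the number of members in parentheses. Cell cycle genes stood at control level in STZ+MENS sample 1 alone among the exposed (-0.04), heat shock genes were lowest in the 2 STZ+MENS samples (-1.51 and -1.04), and fatty acid oxidation genes were at 0.04 and 0.06 in STZ+MENS and at 0.50 and 0.52 in STZ.

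Among the genes 2-fold apart, 5 pairs of higher genes were next to each other on their chromosome with no other tested gene between, and 0 pairs of lower genes. Besides Mt2 with Mt1, Rsad2 with Cmpk2 and Acot2 with Acot1, these were Lig1 with Pla2g4c and H19 with Igf2. H19, an imprinted noncoding RNA, was at 10.46 and 10.42 in control, 11.15 and 11.65 in STZ, and 10.65 and 12.41 in STZ+MENS, and Igf2, the fetal growth factor beside it, at 11.33 and 11.57, 12.29 and 12.82, and 11.72 and 13.40. In both, STZ+MENS sample 1 was the exposed sample nearest control. The 2 H19 arrays of that sample were at 11.16 and 10.15, against control arrays between 10.16 and 10.75. On the lower side, Vmp1, an autophagy protein, Hes6, a transcriptional regulator, Slc44a1, a choline transporter, and C9, a complement component, were also named after their values were seen. Vmp1 was at 15.58 and 15.60 in control, 13.64 and 13.67 in STZ, and 15.29 and 14.05 in STZ+MENS. C9 was at 16.25 and 16.27, 15.99 and 15.58, and 14.19 and 15.12, so it was lower in the group that had MENS than in STZ by 1.13 ± 0.31. Hes6 was at 17.48 and 17.02, 15.93 and 15.80, and 16.98 and 16.29, and Slc44a1 differed from control by -1.14 ± 0.27. Slc44a1 has 3 probes, and its difference was between -1.45 and -0.39 over 19 alternatives, which include the mean of all probes.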

How the data were processed

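Liver RNA of 6 samples was measured on 12 single-colour Phalanx Mouse OneArray chips (Cy5). The deposited values are linear probe intensities that the authors had processed before deposit: array medians lay between 768.89 and 770.33, and 44 to 52 of 26423 probes per array were below 0. How background was removed and arrays were normalized is not given in the sources used here; per the submitters' processing notes limma 3.30.7 was among the tools. Levels are log2 of the intensity plus 50, with negative intensities taken as 0, a scale that understates changes of dim genes. Both arrays of a sample entered as their mean. The platform annotation gave 1 gene symbol for 20377 probes and none for 6046. A RefSeq table served to update symbols (GRCm38.p6, for names and gene order), and the brightest probe stood for each of 17742 genes. Leaving out 73 genes with discordant arrays left 17669. limma 3.58.1 in R 4.3.3 compared exposed with control in a fit of 2 groups (4 residual and 2.92 prior degrees of freedom), and STZ+MENS with STZ in a fit of 3 groups (3 and 3.27). Tests were two-sided, with Benjamini-Hochberg adjustment over all genes tested, and the fit was checked on simulated data. Named genes were the 15 of widest gap per direction (bright-group mean of at least 8, no predicted genes), a panel of metabolic genes, up to 4 genes per list by smallest p, and the genes nearest the edge of the rule. List members beyond these 4, and others marked in the text, were named after their values were seen. The members and lists were chosen with earlier results of these data known. The number of arrays limits the precision. Alternatives changed the offset, the probe and array choices, the normalization, the model and the samples.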

Additional observations from a re-analysis of the deposited data

Results flagged for a closer look

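In 10 of 175 named genes, 1 of the 4 exposed samples stood further from the other 3 than Dixon's critical value allows. Chance alone marks about 1 in 20 groups in this way. The highest exposed sample stood apart for Nfkbia (STZ+MENS sample 2, log2 level 16.35) and Ppargc1a (STZ sample 1, 11.70). The lowest stood apart for Abcc3 (STZ+MENS sample 1, 14.31), Sucnr1 (STZ+MENS sample 1, 10.10), Ier2 (STZ sample 1, 14.19), Creld2 (STZ sample 2, 12.92), Itgam (STZ sample 2, 9.86), Rsph9 (STZ sample 2, 10.52), Pmvk (STZ sample 2, 10.61) and Npas2 (STZ+MENS sample 1, 8.83).

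For G6pc both STZ samples lay above and both STZ+MENS samples below the 2 controls, and STZ+MENS differed from STZ by -2.25 ± 0.38 on the log2 scale (unadjusted p = 0.000881 in limma).

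Of 6012 probes with no gene name here, 42 had all 4 exposed samples above both controls at 2-fold or more (0.699%, against 0.906% of named genes) and 21 had all 4 below (0.349%, against 0.413%). Their largest differences were 3.09 and -1.96.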

How the results depend on the processing

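The number of 2-fold higher genes was 102 with an offset of 200. With the mean of all probes of a gene in place of the brightest, 149 of the 160 higher and 65 of the 73 lower genes were kept. Past the adjusted threshold were 2 higher and 1 lower genes with discordant arrays kept (Mt2, Top2b and Rsph9), 1 (Mt2) with the second arrays alone and 1 (Mt2) with an intensity trend. In the 3-group model 1325 genes were higher and 1236 lower at an unadjusted p of 0.05. For STZ alone against control, 353 were 2-fold higher and 183 lower, with 1508 and 1513 at an unadjusted p of 0.05, and for STZ+MENS alone 204 were 2-fold higher and 369 lower, the larger count being on the lower side, with 1571 and 1640. Leaving out 1 sample at a time gave 0 to 14 higher and 0 to 14 lower genes past the threshold, 139 to 271 and 72 to 179 at 2-fold, and 435 to 1204 and 236 to 1034 at an unadjusted p of 0.05. A group left with 1 sample was taken to vary like the others. Without control sample 1 the last counts were 511 and 236, and without control sample 2 they were 435 and 392. For STZ+MENS against STZ the ranges were 2398 to 5197 at an unadjusted p of 0.05 and 0 to 1855 past the threshold. 170 of 175 named genes kept their direction in all 19 alternatives. The exceptions were Fgf21 (0.08 with the first arrays alone, 0.24 for STZ+MENS alone, -0.21 to 0.16 with a sample left out), G6pc (-0.68 for STZ+MENS alone, -0.07 to 0.92), Igfbp1 (-0.23 to 1.29), Ppargc1a (-0.15 for STZ+MENS alone, -0.19 to 0.35) and Tubb2a (-0.01 for STZ+MENS alone). The cause of these changes was not tested. Same-numbered samples are not stated to be paired and their deviations correlated at -0.07 to 0.016, so the replicate block carries no design; with it, 755 genes were higher and 538 lower at an unadjusted p of 0.05, and the 160 and 73 genes were the same. Low signal limits dim genes, whose differences are understated.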
